A study of Mus musculus with 12 samples.

Results

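Genes of the insulin, insulin-like growth factor (IGF) and FoxO signalling pathway were followed in mouse MSCs exposed to A1, alone or together with the antigen OVA. The members are 10 genes named by symbol, Insr, Irs1, Irs2, Igf1, Igf1r, Igfbp4, Foxo1, Foxo3, Pik3r1 and Txnip, out of 55487 genes in the count table, and all 10 passed the filter on low counts that kept 11314 protein-coding genes. RNA was measured by strand-specific mRNA sequencing in 3 groups of 4 samples. All groups were primary bone marrow MSCs of wild-type C57BL/6 mice (female, 6 to 8 weeks old), stored at passage 9 or 10 and grown in AMEM with 10% fetal bovine serum and penicillin-streptomycin. The untreated group (labelled Negative) received no A1 and no OVA, and its incubation time is not given in the sources used here. The A1 group received 50 μM A1 for 6 h, where A1 is a variant of Accum, a cholic acid linked to a nuclear localization signal peptide. The A1 + OVA group (labelled A1-OVA) received 50 μM A1 and 1 mg/ml chicken egg ovalbumin for 6 h.

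One point of the design bears on these genes. The treatment text in the labels ends its description of the A1 + OVA medium with a fragment that names insulin, with no readable amount, and does not name insulin for the A1 medium. OVA alone was not among the samples, so OVA, any insulin in that medium and their combination with A1 cannot be told apart in the comparison of A1 + OVA with A1. The labels do not say whether the 4 samples of a group came from separate cultures or animals, and p-values measure only the spread between these samples.

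Insulin and IGF-1 bind related receptors, encoded by Insr and Igf1r, which phosphorylate the adaptors IRS1 and IRS2. The adaptors recruit PI3-kinase through its regulatory subunit, encoded by Pik3r1, and the kinase AKT that follows keeps FoxO transcription factors out of the nucleus. When the pathway is quiet, FoxO factors enter the nucleus and activate genes that include Irs2, Insr and Txnip. IGFBP4 binds IGFs outside the cell, and TXNIP, an arrestin-like protein that is induced by glucose, restrains glucose uptake. Bone marrow stromal cells are a known source of IGF-1 and IGF binding proteins.

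Each sample held between 13702348 and 16881995 counts, with 15644991 to 16881995 in untreated, 13702348 to 14347870 in A1 and 14359973 to 16674294 in A1 + OVA samples. The summed level of 10 MSC markers was 6024 to 6385 CPM (counts scaled to a common library size) in untreated, 4668 to 4902 in A1 and 4609 to 4838 in A1 + OVA samples. The fall of this sum came from Cxcl12, at 3910 CPM in untreated and 1514 CPM in A1 samples on average, and without it the sum of the other 9 was higher in treated samples, at 2203 to 2381, 3100 to 3334 and 2948 to 3183 CPM. Cd44 went from 175 to 458 CPM and Itgb1 from 1451 to 2225 CPM with A1, while Vcam1 went from 226 to 117 CPM. In addition, 3 of the defining markers were near 0 in untreated MSCs, Thy1 at 0.267, Nt5e at 0.539 and Lepr at 0.596 CPM. Summed levels of 8 macrophage and leukocyte markers were 9.41 to 10.5, 11.98 to 14.7 and 10.7 to 13.1 CPM in the 3 groups, mostly from Cd14, while Cd163 had no count. Summed levels of 5 adipocyte markers were 2.95 to 5.01, 1.38 to 1.95 and 1.32 to 2.32 CPM. Those of 4 osteoblast markers were 0.564 to 1.05, 2.11 to 2.90 and 1.42 to 1.59 CPM, mostly from Dmp1. The osteoblast markers Bglap, Ibsp and Sp7 had at most 2 counts in any sample. Summed levels of 4 endothelial markers were at most 0.916 CPM, and the 3 erythroid and lymphoid markers had no count. Their part in the results was not tested. In bulk samples such as these, fewer cells of a type and less RNA per cell cannot be told apart.

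Promoter sequences were examined for the members, since FoxO factors, insulin and glucose are known to act through short DNA motifs. RefSeq promoters of GRCm38.p6 (the 250 bases before the start) were held for 9 members in 10 windows, and Insr was not matched. Both strands were searched for a FoxO site (GTAAACA), an insulin response element (CAAAACAA), an E-box (CACGTG) and a tandem E-box-like pair, CACGNG repeated after a gap of 5 letters, in which the glucose-responsive factors MondoA and ChREBP are known to bind. Irs1, Irs2 and Txnip held a match, and the promoters of these members are shown with the matches in capitals, because these are the members that held one. Arrdc4, a close relative of Txnip, is shown beside them. The windows lie at chr1:82291440-82291689 (minus strand) for Irs1, chr8:11008930-11009179 (minus strand) for Irs2, chr3:96557707-96557956 (plus strand) for Txnip and chr7:68749239-68749488 (minus strand) for Arrdc4.
Irs1: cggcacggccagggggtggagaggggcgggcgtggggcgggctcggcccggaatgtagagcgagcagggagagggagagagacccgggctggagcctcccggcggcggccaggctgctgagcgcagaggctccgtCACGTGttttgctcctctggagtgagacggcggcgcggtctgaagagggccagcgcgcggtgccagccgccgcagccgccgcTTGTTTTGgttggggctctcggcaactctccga
Irs2: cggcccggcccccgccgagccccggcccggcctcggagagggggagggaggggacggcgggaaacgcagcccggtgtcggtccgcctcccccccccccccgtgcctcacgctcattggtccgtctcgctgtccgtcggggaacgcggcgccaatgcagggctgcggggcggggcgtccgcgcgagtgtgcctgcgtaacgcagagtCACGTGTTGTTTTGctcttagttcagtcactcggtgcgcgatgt
Txnip: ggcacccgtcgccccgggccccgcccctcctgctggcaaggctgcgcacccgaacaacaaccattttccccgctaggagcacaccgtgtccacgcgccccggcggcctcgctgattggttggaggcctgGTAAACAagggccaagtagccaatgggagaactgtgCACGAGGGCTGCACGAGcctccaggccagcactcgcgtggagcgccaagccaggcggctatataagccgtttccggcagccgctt
Arrdc4: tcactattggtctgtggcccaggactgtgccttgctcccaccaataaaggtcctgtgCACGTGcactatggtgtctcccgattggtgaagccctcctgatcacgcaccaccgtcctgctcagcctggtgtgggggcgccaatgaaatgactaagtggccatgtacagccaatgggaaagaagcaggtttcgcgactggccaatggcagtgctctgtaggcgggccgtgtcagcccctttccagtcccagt

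Both Irs1 and Irs2 held an insulin response element, at -33 and -38 from the start counted to the first base of the match, and an E-box, at -115 and -44. The Txnip promoter held a FoxO site at -121 and the tandem pair at -85, and the Arrdc4 promoter held an E-box at -193. Of 32817 promoters of the same length, 3.16% held the FoxO site, 2.22% the insulin response element, 6.02% the E-box and 0.0457% the tandem pair, which amounts to 15 promoters. These matches are a description of letters in a window, and 250 bases leave out most regulatory sequence of a gene. The other 6 members with an entry held none of the 4 motifs in this window.

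In A1-treated MSCs, 9 of the 10 genes passed edgeR's quasi-likelihood test at an adjusted p under 0.05, and 62.7% of all tested genes did. Of these, 4 were higher (31.7% of all tested genes) and 5 lower (31.1%). With A1 + OVA against untreated MSCs, 9 passed again, with a background of 57.6%, and they divided into 3 higher (background 29.7%) and 6 lower (background 27.9%), since Txnip had moved from the higher to the lower genes. A1 + OVA against A1 called 4 of 10 (background 12.9%), Irs2 and Pik3r1 higher (background 6.05%) and Igfbp4 and Txnip lower (background 6.81%). This last count was 2 without A1 replicate 3 or 4 or without A1 + OVA replicate 2 or 4. Over the whole transcriptome, these 4 settings called 1075, 1092, 1190 and 971 genes, in that order, against 1455 with all samples. The samples of each called member did not overlap between the groups compared, which gives 9, 9 and 4 members. Non-overlap held for 54.4%, 49.4% and 18.1% of all tested genes in the 3 comparisons. The share of genes called is high for the whole transcriptome, and the first and second comparisons share the untreated samples.

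**Figure D1:**
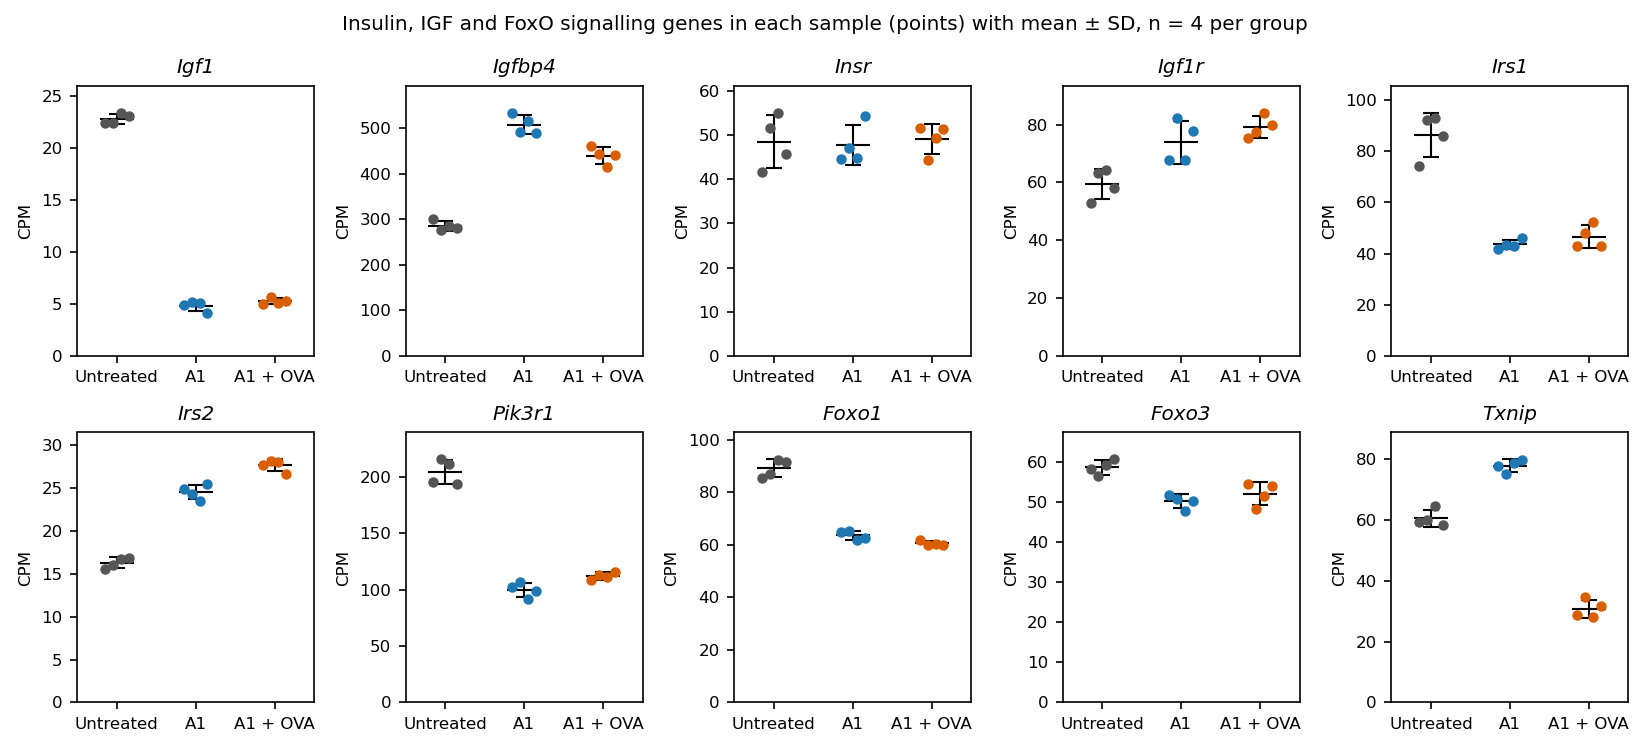
CPM of the 10 genes in every sample (points), with group mean and SD (lines, n = 4 per group), in untreated, A1 and A1 + OVA MSCs; each panel has its own axis from 0. Igf1 lies at 22.3 to 23.3 CPM in untreated samples and at or under 5.70 CPM in every treated sample, and Txnip is the only panel in which A1 lies above and A1 + OVA below untreated.

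Among ligands and binding proteins, Igf1 and Igfbp4 moved in opposite directions with A1. Igf1 encodes the secreted ligand of the IGF-1 receptor and lies on chromosome 10 (87858265 to 87937042, plus strand). Its level was 22.4, 22.3, 23.3 and 23.1 CPM in untreated samples 1 to 4, 4.85, 5.19, 5.04 and 4.14 CPM in A1 samples and 5.00, 5.70, 5.08 and 5.30 CPM in A1 + OVA samples. Untreated samples stood above all 8 treated ones, and the treated groups overlapped. With A1 it fell by 78.9% (log2 fold change -2.25 ± 0.08 SE, adjusted p = 1.16e-15, edgeR's quasi-likelihood test) and with A1 + OVA by 76.8% (-2.11 ± 0.08, adjusted p = 1.79e-15). Of 11314 tested genes it had the 24th lowest fold change with A1. The A1 + OVA level was 1.10-fold that of A1, with a 95% confidence interval from 0.945 to 1.28 (adjusted p = 0.47).

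Igfbp4, an IGF-binding protein that is known to limit IGF action, was the most abundant member and lies on chromosome 11 (99041244 to 99054392, plus strand). Its level was 300, 277, 286 and 280 CPM in untreated, 533, 492, 516 and 489 CPM in A1 and 461, 444, 414 and 441 CPM in A1 + OVA samples. No 2 groups overlapped, and A1 + OVA samples lay between the others. The rise with A1 was 1.78-fold (log2 0.83 ± 0.04 SE, adjusted p = 2.13e-13, edgeR) and with A1 + OVA 1.54-fold (log2 0.62 ± 0.04, adjusted p = 2.84e-11). Against A1, the A1 + OVA level fell by 13.3% (adjusted p = 0.0021).

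The receptors differed from each other. Insr encodes the insulin receptor (chromosome 8, 3122061 to 3279617, minus strand), and its level was 41.6, 51.6, 55.0 and 45.8 CPM in untreated, 44.7, 47.1, 44.7 and 54.2 CPM in A1 and 51.7, 44.3, 49.2 and 51.3 CPM in A1 + OVA samples. All 3 groups overlapped. The fold was 0.983 with A1 (95% interval 0.879 to 1.10), 1.01 with A1 + OVA (0.906 to 1.13) and 1.03 for A1 + OVA against A1 (0.919 to 1.15). Igf1r, which encodes the IGF-1 receptor (chromosome 7, 67952827 to 68233668, plus strand), was at 52.9, 63.1, 64.2 and 58.1 CPM in untreated, 67.8, 82.3, 67.6 and 77.9 CPM in A1 and 75.4, 77.6, 84.0 and 79.7 CPM in A1 + OVA samples. Every treated sample stood above every untreated one, and the treated groups overlapped. Igf1r rose 1.24-fold with A1 (adjusted p = 0.00034) and 1.33-fold with A1 + OVA (adjusted p = 1.36e-05, edgeR). Against A1, A1 + OVA gave 1.07-fold (interval 0.976 to 1.18).

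The adaptors moved in opposite directions. Irs1 (chromosome 1, 82233101 to 82291416, minus strand) was at 74.2, 92.1, 92.8 and 86.0 CPM in untreated, 41.9, 43.1, 43.0 and 46.0 CPM in A1 and 42.9, 48.1, 52.2 and 43.0 CPM in A1 + OVA samples. The lowest untreated sample was above the highest treated one. It fell by 49.5% with A1 (log2 -0.99 ± 0.07 SE, adjusted p = 5.95e-11, edgeR) and by 46.0% with A1 + OVA, and A1 + OVA against A1 gave 1.07-fold (interval 0.963 to 1.19). Irs2 (chromosome 8, 10984681 to 11008458, minus strand) was at 15.6, 16.1, 16.8 and 16.9 CPM in untreated, 24.9, 24.4, 23.5 and 25.5 CPM in A1 and 27.7, 28.2, 28.1 and 26.7 CPM in A1 + OVA samples. The 3 groups rose in this order without overlap. Irs2 rose 1.51-fold with A1 (adjusted p = 1.78e-08) and 1.69-fold with A1 + OVA (adjusted p = 2.08e-10, edgeR). The further 1.13-fold difference of A1 + OVA from A1 had an adjusted p of 0.048 (edgeR). That call was lost in 15 of 20 alternative settings, and the adjusted p was 0.038 to 0.14 over all 20 (edgeR or DESeq2).

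Per exon length (RPKM, with lengths from GENCODE M21), Irs1 was the more abundant adaptor in untreated MSCs, at 9.43 ± 0.94 RPKM (SD, n = 4) against 2.58 ± 0.10 for Irs2. In A1 samples they were at 4.76 ± 0.19 and 3.89 ± 0.13 RPKM. The Irs2 share of the summed level of both was 21.6% (20.2 to 23.3%) in untreated, 45.0% (44.2 to 46.2%) in A1 and 46.3% (43.7 to 48.3%) in A1 + OVA samples. The untreated range stood apart from both treated ranges, which overlapped. Insr made up 49.8% of Insr plus Igf1r in untreated, 44.1% in A1 and 43.1% in A1 + OVA samples. For Foxo1 plus Foxo3, the Foxo1 share was 57.0%, 52.5% and 50.4%.

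**Figure D2:**
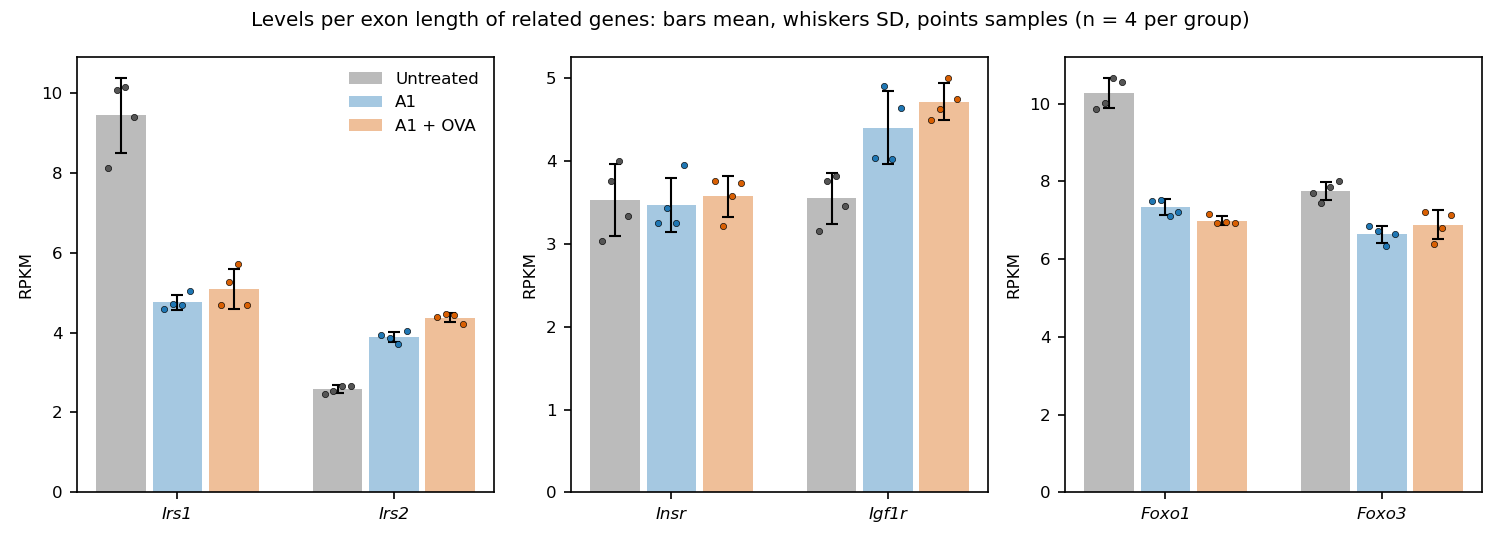
RPKM of the adaptors, receptors and FoxO factors in the 3 groups, as bars (mean), whiskers (SD) and points (samples, n = 4 per group). Irs1 falls from 9.43 RPKM in untreated to 4.76 RPKM in A1 samples while Irs2 goes from 2.58 to 3.89 RPKM, and Insr stays between 3.47 and 3.57 RPKM on average.

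Ordered by RPKM in untreated MSCs, Igfbp4 (64.7) was followed by Pik3r1 (20.3), Txnip (19.4), Foxo1 (10.3), Irs1 (9.43), Foxo3 (7.76), Igf1r (3.55), Insr (3.53), Irs2 (2.58) and Igf1 (2.30). Samples of Pik3r1 and Txnip overlapped, as did those of Foxo1 and Irs1 and those of Igf1r and Insr, so the order within each of these pairs was not resolved. In A1 samples Igf1, at 0.485 RPKM, was the lowest member, and in A1 + OVA samples it was at 0.532 RPKM.

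Pik3r1 encodes the regulatory subunit of PI3-kinase (chromosome 13, 101680563 to 101768217, minus strand) and fell to about the same extent as Irs1. Its level was 196, 215, 212 and 194 CPM in untreated, 102, 107, 91.8 and 99.0 CPM in A1 and 108, 113, 111 and 116 CPM in A1 + OVA samples. All treated samples lay below the untreated ones, and every A1 + OVA sample was above every A1 sample. It fell by 51.1% with A1 (log2 -1.03 ± 0.05 SE, adjusted p = 3.63e-14, edgeR). With A1 + OVA it fell by 45.1% (adjusted p = 6.09e-13). A1 + OVA was 1.12-fold higher than A1 (adjusted p = 0.025), and this call was lost in 4 of 20 alternatives, without A1 replicate 3 or 4 or A1 + OVA replicate 2 or 4 (adjusted p 0.055 to 0.11).

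Both FoxO factors among the members were lower after treatment. Foxo1 (chromosome 3, 52268336 to 52353221, plus strand) was at 85.5, 86.7, 92.4 and 91.4 CPM in untreated, 64.9, 65.3, 61.6 and 62.5 CPM in A1 and 62.0, 60.0, 60.3 and 60.0 CPM in A1 + OVA samples. Treated and untreated samples did not overlap. It fell by 28.6% with A1 (adjusted p = 1.36e-09) and by 31.9% with A1 + OVA (adjusted p = 1.51e-10, edgeR). Foxo3 (chromosome 10, 42181841 to 42276755, minus strand) was at 58.4, 56.4, 59.4 and 60.7 CPM in untreated, 51.9, 50.9, 47.9 and 50.2 CPM in A1 and 54.6, 48.4, 51.5 and 54.0 CPM in A1 + OVA samples. The highest treated sample stayed under the lowest untreated one. Its fall was smaller, by 14.4% with A1 (adjusted p = 0.00039) and by 11.2% with A1 + OVA (adjusted p = 0.0038). Neither differed between A1 + OVA and A1 beyond the spread, with folds of 0.953 (interval 0.896 to 1.01) for Foxo1 and 1.04 (0.966 to 1.11) for Foxo3.

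Txnip encodes the thioredoxin-interacting protein (chromosome 3, 96557957 to 96561883, plus strand) and had the largest difference between the treatments of the 10 members. It was at 59.2, 60.0, 64.7 and 58.4 CPM in untreated, 77.7, 75.0, 78.8 and 79.8 CPM in A1 and 28.7, 34.6, 28.2 and 31.6 CPM in A1 + OVA samples. No groups overlapped, with A1 above untreated and A1 + OVA below it. Txnip rose 1.28-fold with A1 (log2 0.36 ± 0.05 SE, adjusted p = 4.98e-06, edgeR) and fell by 49.1% with A1 + OVA (log2 -0.97 ± 0.06, adjusted p = 3.96e-12). The direct comparison of A1 + OVA with A1 gave a fall of 60.4% (log2 -1.34 ± 0.06, 95% interval -1.46 to -1.22, adjusted p = 2.42e-12). It had the 4th lowest fold change of the 11314 tested genes in that comparison.

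**Figure D3:**
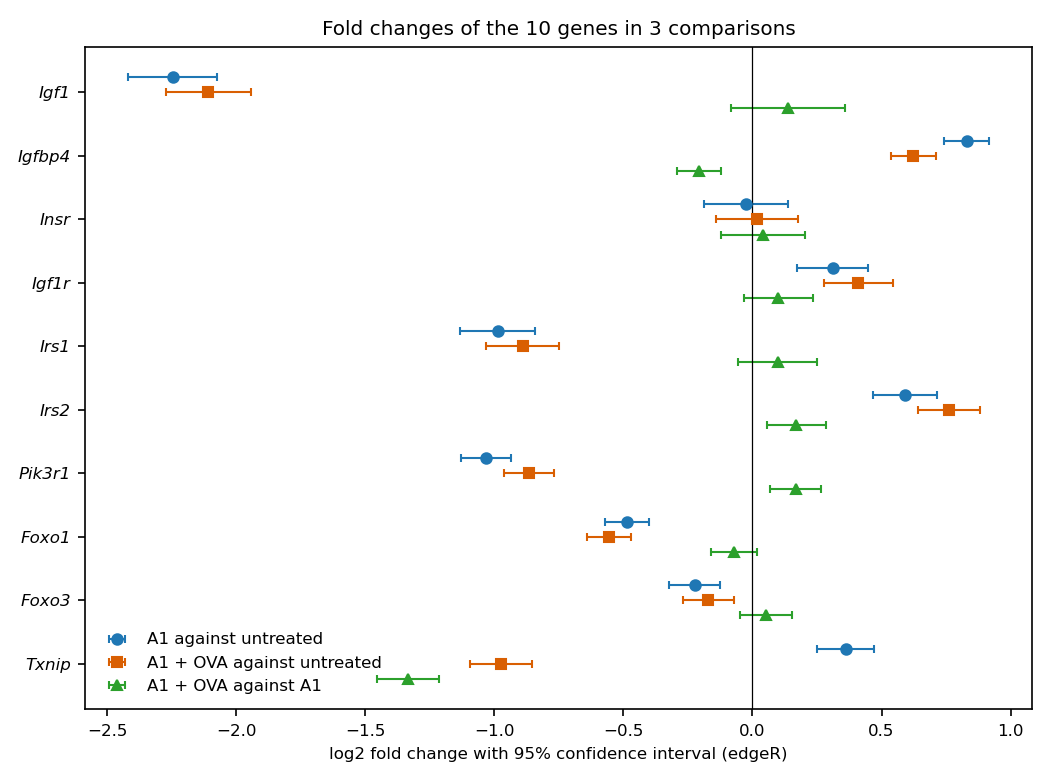
log2 fold changes of the 10 genes with 95% confidence intervals (edgeR, n = 4 per group) for A1 against untreated, A1 + OVA against untreated and A1 + OVA against A1. Igf1 lies at -2.25 and -2.11 against untreated, Txnip at 0.36 and -0.97 with -1.34 between the treatments, and the intervals of Insr contain 0 in every comparison.

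Arrdc4 was chosen after its values were seen. It encodes another arrestin-domain protein that, like TXNIP, is known to restrain glucose uptake, and it was at 106, 99.4, 100.5 and 98.9 CPM in untreated, 98.7, 90.9, 102 and 92.4 CPM in A1 and 59.1, 57.8, 54.5 and 63.4 CPM in A1 + OVA samples. Untreated and A1 samples overlapped, and A1 + OVA samples lay below both. With A1 it changed by log2 -0.07 (adjusted p = 0.17), and A1 + OVA was lower than A1 by log2 -0.71 (adjusted p = 7.53e-09, edgeR). The list of Txnip partners, relatives and glucose-sensing genes holds Txnip itself, and 10 of its 12 genes were tested. With A1, 7 of them rose, Txnip included, and 3 did not pass. Over all tested genes, 31.7% rose and 31.1% fell with A1. The median log2 fold change was 0.25 in the list and -0.0017 over all tested genes. With A1 + OVA against A1, 2 rose (background 6.05%) and 2 fell (background 6.81%), Txnip and Arrdc4 being the genes that fell. The other arrestin-domain relatives did not pass in that comparison, with log2 differences of 0.19 for Arrdc1 (adjusted p = 0.41), -0.05 for Arrdc2 (adjusted p = 0.86) and 0.07 for Arrdc3 (adjusted p = 0.54, edgeR).

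Slc2a1, the glucose transporter GLUT1, had the largest rise of this list with A1, from 39.9 ± 1.9 (SD, n = 4) to 93.2 ± 4.3 CPM (log2 1.22), and A1 + OVA was higher again at 110 ± 3.3 CPM (log2 0.24 against A1, adjusted p = 0.00082, edgeR). Mlx, the partner of MondoA, rose by log2 0.58 with A1 and differed by 0.03 (adjusted p = 0.77) between the treatments.

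**Figure D4:**
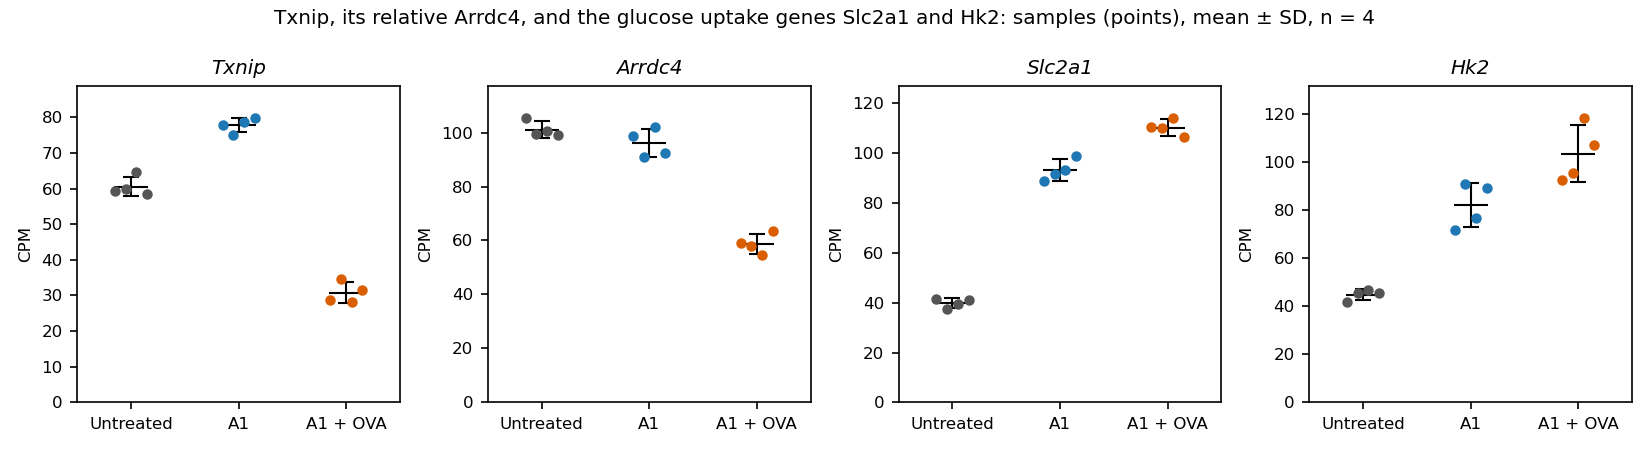
CPM of Txnip, Arrdc4, Slc2a1 and the glucose-phosphorylating enzyme Hk2 in every sample (points) with mean and SD (lines, n = 4 per group). A1 + OVA lies below A1 for Txnip and Arrdc4, and above it for Slc2a1 and Hk2. Arrdc4 was chosen after its values were seen. Hk2 is from the genes that insulin is known to raise, of which 1 rose and 3 fell with A1 + OVA against A1.

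Genes of the pathway were taken from 11 lists, which also hold the members, so list counts include the members' own results. Their counts are to be read against all tested genes, of which 31.7% were higher and 31.1% lower with A1, and 6.05% higher and 6.81% lower with A1 + OVA against A1. Of the 8 ligands and receptors, 4 were tested, and Ins1 and Ins2, the insulin genes, had no count in any sample while Igf2 had at most 1. Igf2r, the receptor that clears IGF-2, fell by log2 -0.46 with A1 (adjusted p = 2.79e-05). In this list 1 gene, the member Igf1r, rose and 2, the member Igf1 and Igf2r, fell with A1. Among IGF binding proteins and their proteases, 4 of 12 were tested, of which 2 rose and 2 fell. Igfbp7 rose by log2 0.47, and Pappa2, a protease that cleaves IGF binding proteins, fell from 7.40 ± 0.51 to 1.56 ± 0.46 CPM (log2 -2.24, adjusted p = 8.11e-10, edgeR). Pappa, a protease known to cleave IGFBP4, fell by 18.0% with A1 and was higher with A1 + OVA than with A1 (log2 0.38, adjusted p = 0.0011, edgeR). The 7.0% difference of Pappa in A1 + OVA from untreated did not pass. Between the treatments, Pappa2 had a log2 difference of 0.39 that did not pass (adjusted p = 0.31).

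Of the receptor adaptors, 7 were tested, and 3 rose and 4 fell with A1, with Sh2b2 at log2 0.45 (adjusted p = 0.0013, samples overlapping). Inhibitors of the receptors and adaptors numbered 9 tested, with 4 higher and 2 lower. Enpp1, a membrane enzyme known to inhibit the insulin receptor, went from 19.3 ± 1.0 CPM to 63.1 ± 1.3 CPM with A1 (log2 1.71, adjusted p = 2.91e-17, edgeR), and A1 + OVA was lower than A1 by log2 -0.40 (adjusted p = 5.46e-06). Grb10, an adaptor that inhibits the receptors, fell by log2 -0.39, and Socs3, a feedback inhibitor, rose by log2 0.38.

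Among 7 PI3K subunits, 1 rose and 3 fell with A1. Pik3r3, another regulatory subunit, fell by log2 -0.99 and the catalytic Pik3cb rose by log2 0.61 (adjusted p = 2.53e-08). Among 8 tested genes listed as PI3K and AKT inhibitors, 5 rose and 3 fell. Pik3ip1, which inhibits PI3K, fell from 11.9 ± 1.2 to 4.57 ± 0.26 CPM (log2 -1.38, adjusted p = 1.82e-10) and was higher with A1 + OVA than with A1 by log2 0.49 (adjusted p = 0.0079, edgeR). The list holds the Tribbles genes Trib1 and Trib2, while Trib3 was counted with the receptor and adaptor inhibitors. With A1, Trib1 rose by log2 0.94 and Trib2 by 56.6%, and Trib3 changed by -1.3%. The Trib3 estimate for A1 + OVA was 24.5% above untreated and 26.2% above A1. Inpp4b rose by log2 1.23 but had at most 15 counts in a sample, so that its fold is imprecise. Of 20 AKT and mTOR kinases and regulators, 6 rose, 7 fell and 7 did not pass. Sgk1, a kinase that also phosphorylates FoxO factors, rose by log2 1.19 with A1 and was lower with A1 + OVA than with A1 by log2 -0.32 (adjusted p = 0.00039), Eif4ebp1 rose by log2 0.72 and Deptor fell by log2 -0.76. All 3 tested FoxO factors fell with A1, the members Foxo1 and Foxo3 and also Foxo4, at log2 -0.35 (adjusted p = 0.00015, edgeR).

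Of 25 genes that FoxO factors are known to activate, 19 were tested. With A1, 5 rose, 10 fell and 4 did not pass (median log2 fold change -0.11), and with A1 + OVA against untreated 4 rose, 10 fell and 5 did not (median -0.15). Over all tested genes, 31.7% rose and 31.1% fell with A1, and 29.7% rose and 27.9% fell with A1 + OVA. The rising genes were Bnip3, Fbxo32, Irs2, Pdk4 and Txnip, and the members Irs2 and Txnip were thus among the 5 that rose with A1. Sesn3, Pik3ip1 and Sesn1 fell the most, Sesn3 from 90.8 ± 2.5 to 35.3 ± 2.2 CPM (log2 -1.36, adjusted p = 8.27e-16, edgeR) and Sesn1 by log2 -1.07. Between A1 + OVA and A1, 3 rose, 4 fell and 12 did not pass. Of 8 genes that insulin is known to raise, 7 were tested, of which 6 rose and 1 fell with A1. Egr1 rose by log2 1.49, Hk2 by 0.87 and Ccnd1 by 0.52. With A1 + OVA against A1, 1 rose and 3 fell, with Hk2 higher by log2 0.33 (adjusted p = 0.0044, edgeR) and Egr1 lower by log2 -0.78 (adjusted p = 5.54e-07).

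**Figure D5:**
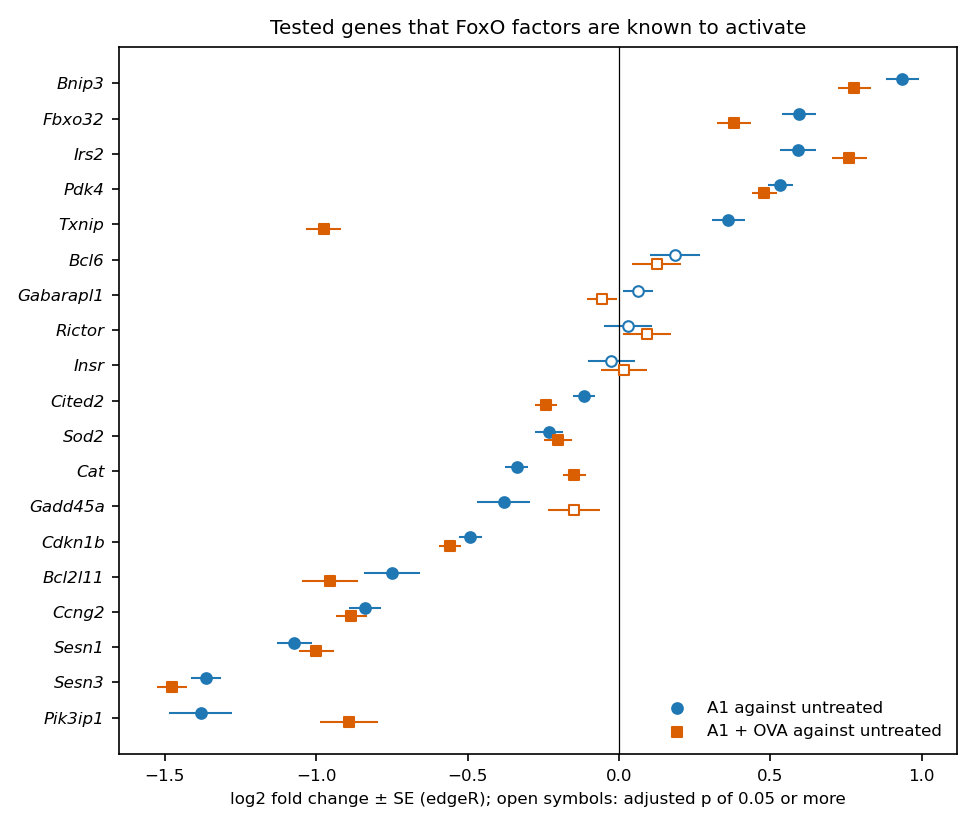
log2 fold change with SE of the 19 tested genes that FoxO factors are known to activate, for A1 and A1 + OVA against untreated (n = 4 per group); open symbols have an adjusted p of 0.05 or more. Txnip lies at 0.36 with A1 and at -0.97 with A1 + OVA, and Sesn3 and Pik3ip1 lie lowest with A1, at -1.36 and -1.38.

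Counting was strand-specific, and 4 members overlap a gene on the opposite strand over 2.6 to 30.9% of their exon length. These neighbours held 0 to 6 counts in any sample, far below the members.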

How the data were processed

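RNA was sequenced as strand-specific mRNA libraries from 12 samples. The authors aligned paired-end reads to GRCm38 with STAR 2.7 and deposited raw counts per gene from featureCounts 2.0, without normalization or filtering. Symbols, coordinates and exon lengths came from GENCODE M21, which matched 99.5% of 55487 identifiers (21974 protein-coding). Protein-coding genes were kept with filterByExpr (11314), given TMM scaling factors and fitted together, all 12 samples in 1 model with group as its single term, for the quasi-likelihood test of edgeR 4.0.16 under R 4.3.3. P-values were adjusted by Benjamini-Hochberg over all tested genes, and calls had an adjusted p under 0.05. The SE was the log2 fold change divided by the square root of F. CPM used the effective library, and RPKM divided it by exon length. The study's own tool, DESeq2 1.42.0, other scalings and filters, a replicate block and leaving out each sample were alternatives. The code was tested on simulated data.

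The members and lists were chosen with earlier results of these data known. Named non-members were, per list, the 3 called genes with the largest change with A1 and the largest called change of A1 + OVA against A1. Trib2, Trib3 and the untested Ins1, Ins2 and Igf2 were named outside this rule. Bnip3, Fbxo32, Pdk4 and Arrdc1 to Arrdc4 were added after their values were seen. Sample groups followed the titles. Samples of a group differed by 1.91 to 6.80 times the counting variance over 18 pairs, so none looked like a copy of another. Depth was 13702348 to 16881995 counts per sample.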

Additional observations from a re-analysis of the deposited data

Results flagged for a closer look

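Of 30 groups of 4 values examined, 1 held a sample far from the others, where chance flags about 1 in 20. Foxo1 in A1 + OVA replicate 1 was at 62.0 CPM, while the other replicates lay at 60.0 to 60.3 CPM. The fall of Foxo1 with A1 + OVA against untreated was called without that sample too.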

How the results depend on the processing

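When calls also needed a log2 change of 0.5 or more in size, fewer of the 11314 tested genes and 10 members were called. For A1 against untreated, calls fell from 7098 genes, 9 members and 74 pathway genes to 2372, 5 and 29. For A1 + OVA against untreated, they fell from 6518, 9 and 69 to 2004, 7 and 30. For A1 + OVA against A1, they fell from 1455, 4 and 22 to 136, 1 and 3. The pathway genes were those of the 11 lists and included the members. Leaving out 1 sample gave 2 to 4 members called for A1 + OVA against A1, while 971 to 1619 genes were called over the whole transcriptome. The Irs2 call in that comparison was lost with DESeq2 (adjusted p = 0.13), DESeq2 size factors in edgeR (0.056), no filter (0.11), all genes of the file (0.057) and the replicate block (0.065), and without any 1 of the A1 or A1 + OVA samples or untreated replicate 3 or 4 (0.056 to 0.14). Insr changed sign without 1 sample, with log2 values of -0.0994 to 0.0403 with A1 and -0.0501 to 0.0813 with A1 + OVA, and was -0.00626 with A1 + OVA under upper-quartile scaling. Between A1 + OVA and A1, leaving out 1 sample moved Grb10 from -0.0477 to 0.0263, Foxo4 from -0.0543 to 0.0355 and Deptor from -0.0604 to 0.00525, none of them called. Arrdc1 and Arrdc2, not called in the comparisons named here, also changed sign. Without 1 sample, Arrdc1 with A1 was -0.0766 to 0.0584, and Arrdc2 was -0.0330 to 0.175 with A1 + OVA against untreated and -0.103 to 0.0416 against A1. Arrdc1 with A1 was -0.0256 under upper-quartile scaling, -0.00115 with at least 10 counts in every sample and -0.00374 over all genes of the file. Igf2r, not called for A1 + OVA against A1 (adjusted p = 0.059), was called in 7 of 20 settings, and Bnip3, called there (0.048), lost its call in 11 of 20. The cause was not tested.

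Deviations of samples with the same replicate number correlated at 0.02 on average over 12 pairs (-0.13 to 0.16), against -0.01 over 36 pairs with other numbers, so the numbers do not show a pairing. The 3 comparisons called 9, 9 and 3 members, 7134, 6580 and 1488 genes and 75, 70 and 21 pathway genes with the replicate block. Without the block, these were 9, 9 and 4 members, 7098, 6518 and 1455 genes and 74, 69 and 22 pathway genes.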
